A study of Homo sapiens with 41 samples.

Results

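The genes described here encode the machinery that brings new secretory proteins into the endoplasmic reticulum (ER) and ships them out in COPII vesicles, measured by RNA sequencing in 2 human cell lines. They are 47 of the 58735 genes counted, taken from a fixed list of symbols, and all 47 were found and passed the low-count filter in every fit. They fall into 5 subsets. The translocon subset has 12 genes: SEC61A1, SEC61A2, SEC61B, SEC61G, SEC62, SEC63, SSR1, SSR2, SSR3, SSR4, TRAM1 and TRAM2. Signal peptidase has 5 genes, which are SPCS1, SPCS2, SPCS3, SEC11A and SEC11C. Signal recognition has 8, namely SRP9, SRP14, SRP19, SRP54, SRP68, SRP72, SRPRA and SRPRB. COPII has 16: SAR1A, SAR1B, PREB, SEC13, SEC23A, SEC23B, SEC24A, SEC24B, SEC24C, SEC24D, SEC31A, SEC31B, SEC16A, TFG, MIA3 and MIA2. Cargo receptors and retrieval make up the last 6: KDELR1, KDELR2, KDELR3, LMAN1, MCFD2 and SURF4.

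LX-2 is an immortalised human line of hepatic stellate origin (the cells that lay down collagen in the fibrotic liver), and HMLE is an immortalised line of human mammary epithelial cells. Every culture carried a hairpin: shATF4, against the stress-response transcription factor ATF4, or the control hairpin shCtrl. LX-2 cells with each hairpin were given TGFbeta, thapsigargin, AA_Dep or DMSO, and HMLE cells with each hairpin were Twist_OE, thapsigargin, AA_Dep or DMSO. TGFbeta is the main fibrogenic cytokine, and thapsigargin blocks the calcium pump of the ER and causes ER stress. Twist_OE stands for overexpression of Twist, a transcription factor that drives the epithelial to mesenchymal transition, and DMSO is the vehicle. AA_Dep is not spelled out in the labels. These make 16 groups of 2 samples. The labels give no doses, times or hairpin sequences, both lines are single immortalised lines, and nothing says that samples of a group came from separate cultures, so p-values measure the spread between these samples, which may be technical.

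As background, signal recognition particle (SRP) binds a signal sequence as it leaves the ribosome and docks at its receptor, SRPRA with SRPRB, and the chain passes through the SEC61 channel while signal peptidase cuts the signal off. Cargo then leaves at ER exit sites, where the GTPase SAR1 recruits an inner coat of SEC23 and SEC24 and an outer coat of SEC13 and SEC31, with MIA3 and MIA2 helping large cargo such as procollagen to leave. Under ER stress the unfolded protein response, through XBP1 and ATF6, is known to raise many genes of this machinery, and stellate cells that make collagen depend on it.

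Promoter sequence was available from RefSeq (GRCh38.p14; 250 bases before to 50 after the annotated start) for 41 of the 47 genes, all but KDELR2, TRAM1, SRPRA, MIA2, SEC24D and SPCS1. It was searched on both strands for the core of the unfolded protein response element, TGACGTG, bound by XBP1 and ATF6, for the ATF4-type element TGATGNAA, and for the ER stress elements ERSE and ERSE-II. TGACGTG read on the other strand shares the letters CACG with the end of both ER stress elements. TGACGTG was present in 11 of the 41 (26.8%): SEC61A1, SEC62, SSR3, SSR4, SRP19, SEC13, SEC23A, SEC24A, SEC16A, MIA3 and KDELR3. The same letters are in 2.4% of 27305 genes with a promoter and in 3.53% of the 9158 of these genes with a mean of at least 100 counts. TGATGNAA was present in SRPRB and MCFD2 (4.9% of the 41, against 4.46% of all), and neither ERSE (0.0916% of all) nor ERSE-II (0.0696% of all) was found in any of the 41. The windows below show the match in capitals, with up to 25 bases on either side and cut at the annotated start, for the 8 genes whose match lies wholly before it; they are shown because the responses below can be read against them.
MIA3: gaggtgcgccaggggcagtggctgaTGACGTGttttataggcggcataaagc
SEC13: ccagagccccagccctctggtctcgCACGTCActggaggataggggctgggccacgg
SSR3: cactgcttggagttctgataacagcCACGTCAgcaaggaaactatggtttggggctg
SEC62: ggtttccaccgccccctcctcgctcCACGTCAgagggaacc
SRP19: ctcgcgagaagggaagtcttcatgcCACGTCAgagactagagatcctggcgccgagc
SEC24A: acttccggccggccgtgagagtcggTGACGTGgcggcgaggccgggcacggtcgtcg
KDELR3: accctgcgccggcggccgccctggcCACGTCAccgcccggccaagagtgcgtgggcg
SSR4: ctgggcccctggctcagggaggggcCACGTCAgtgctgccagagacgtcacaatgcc

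The match starts 27 bases before the annotated start in MIA3, 143 in SEC13, 40 in SSR3, 16 in SEC62, 111 in SRP19, 179 in SEC24A, 45 in KDELR3 and 128 in SSR4. The printed windows, match and flanks together, lie at chr1:222644277-222644328 (plus strand) for MIA3, chr3:10321224-10321280 (minus strand) for SEC13, chr3:156554134-156554190 (minus strand) for SSR3 and chr3:169966766-169966806 (plus strand) for SEC62. Those of the other 4 lie at chr5:112861151-112861207 (plus strand) for SRP19, chr5:134648581-134648637 (plus strand) for SEC24A, chr22:38468026-38468082 (plus strand) for KDELR3 and chrX:153794515-153794571 (plus strand) for SSR4. A match is a string of letters and not a measured binding site.

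The LX-2 libraries held 14551191 to 18776430 counts in total and the HMLE libraries 15956909 to 23243132. The files of both HMLE shATF4 AA_Dep samples were identical and entered as 1 library, which leaves 31. One LX-2 library, replicate 2 of shCtrl thapsigargin, stood apart: it had counts for 15840 genes, where every other library of the line had 22912 to 24255, and its log-scale correlation with replicate 1 was 0.88, where the remaining pairs of the line reached 0.992 or more. LX-2 results are therefore given without it (15 libraries, coefficient of biological variation 9.21%), and with all 16 (29.5%) wherever its group is compared. The group is then 1 library, assumed to vary like the others. Epithelial markers (CDH1, EPCAM, KRT5, KRT14, TP63 and GRHL2) summed to at most 1.07 CPM (normalised counts scaled to library size) in LX-2 and to 3920.0 to 7230.0 CPM in HMLE, other than 320.0 and 313 CPM in HMLE shCtrl Twist_OE. Hepatocyte markers (ALB, APOA1, TTR and SERPINA1) stayed at or below 11.0 CPM in sum in LX-2. ATF4 itself was lower in shATF4 than in shCtrl in all 8 pairs of groups, with log2 changes of -1.07 with TGFbeta, -1.57 with thapsigargin, -1.64 in AA_Dep and -0.91 in DMSO in LX-2, and of -0.97, -2.72, -2.78 and -1.85 in HMLE Twist_OE, thapsigargin, AA_Dep and DMSO.
Per library, ATF4 had 131 and 133 CPM in shATF4, against 274 and 282 CPM in shCtrl with TGFbeta, and 201 and 179 CPM in shATF4, against 574 CPM in shCtrl in replicate 1 (1113 CPM in the discordant replicate 2) with thapsigargin. In AA_Dep, LX-2 had 205 and 202 CPM in shATF4, against 713 and 556 CPM in shCtrl, and in DMSO 122 and 109.6 CPM in shATF4, against 207 and 234 CPM in shCtrl. HMLE had 162 and 166 CPM in shATF4, against 312 and 327 CPM in shCtrl of Twist_OE, 111 and 113 CPM in shATF4, against 762 and 715 CPM in shCtrl with thapsigargin, 136 CPM in shATF4 in the 1 library, against 930.2 and 946 CPM in shCtrl of AA_Dep, and 136 and 129 CPM in shATF4, against 464 and 486 CPM in shCtrl of DMSO. The hairpins did not overlap within any condition.

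Across the 16 groups, all levels below are TMM-normalised CPM, so they are compared between groups and not between genes. KDELR3, a retrieval receptor that returns ER residents from the Golgi, varied most: its group mean ran from 5.04 CPM in HMLE shCtrl AA_Dep to 118 CPM in LX-2 shATF4 TGFbeta, a 23.3-fold range. SEC31B, the minor paralogue of the outer coat protein SEC31A, spanned 15.2-fold and TRAM2, a translocon-associated protein linked to collagen synthesis, 11.1-fold. The SEC31B range starts at a low level, 1.14 CPM in HMLE shCtrl thapsigargin, and reaches 17.3 CPM in LX-2 shCtrl AA_Dep. Its lowest count in a library other than the discordant one was 21. SEC24D and SEC23A of the inner coat spanned 8.52-fold and 8.26-fold. At the other end, SRP14 and SRP9, which hold translation back while SRP is bound, spanned 1.53-fold and 1.78-fold, and the GTPase SAR1A 1.59-fold. The paralogue SAR1B spanned 2.69-fold. Group means ran from 155 to 1050.0 CPM for SSR3, from 51.5 to 304 CPM for SPCS3, from 98.2 to 311 CPM for SRP72, from 47.5 to 393 CPM for SEC23A and from 171 to 527 CPM for SURF4. Of the 47 genes, 14 have named pseudogenes. These took 5.54% of the combined counts for SPCS2 and 1.46% for SSR4, and at most 0.388% for the others. MIA2 has 12 relatives named CTAGE, which took 4.88% of the combined counts. Whether reads moved between copies was not tested.

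**Figure D1:**
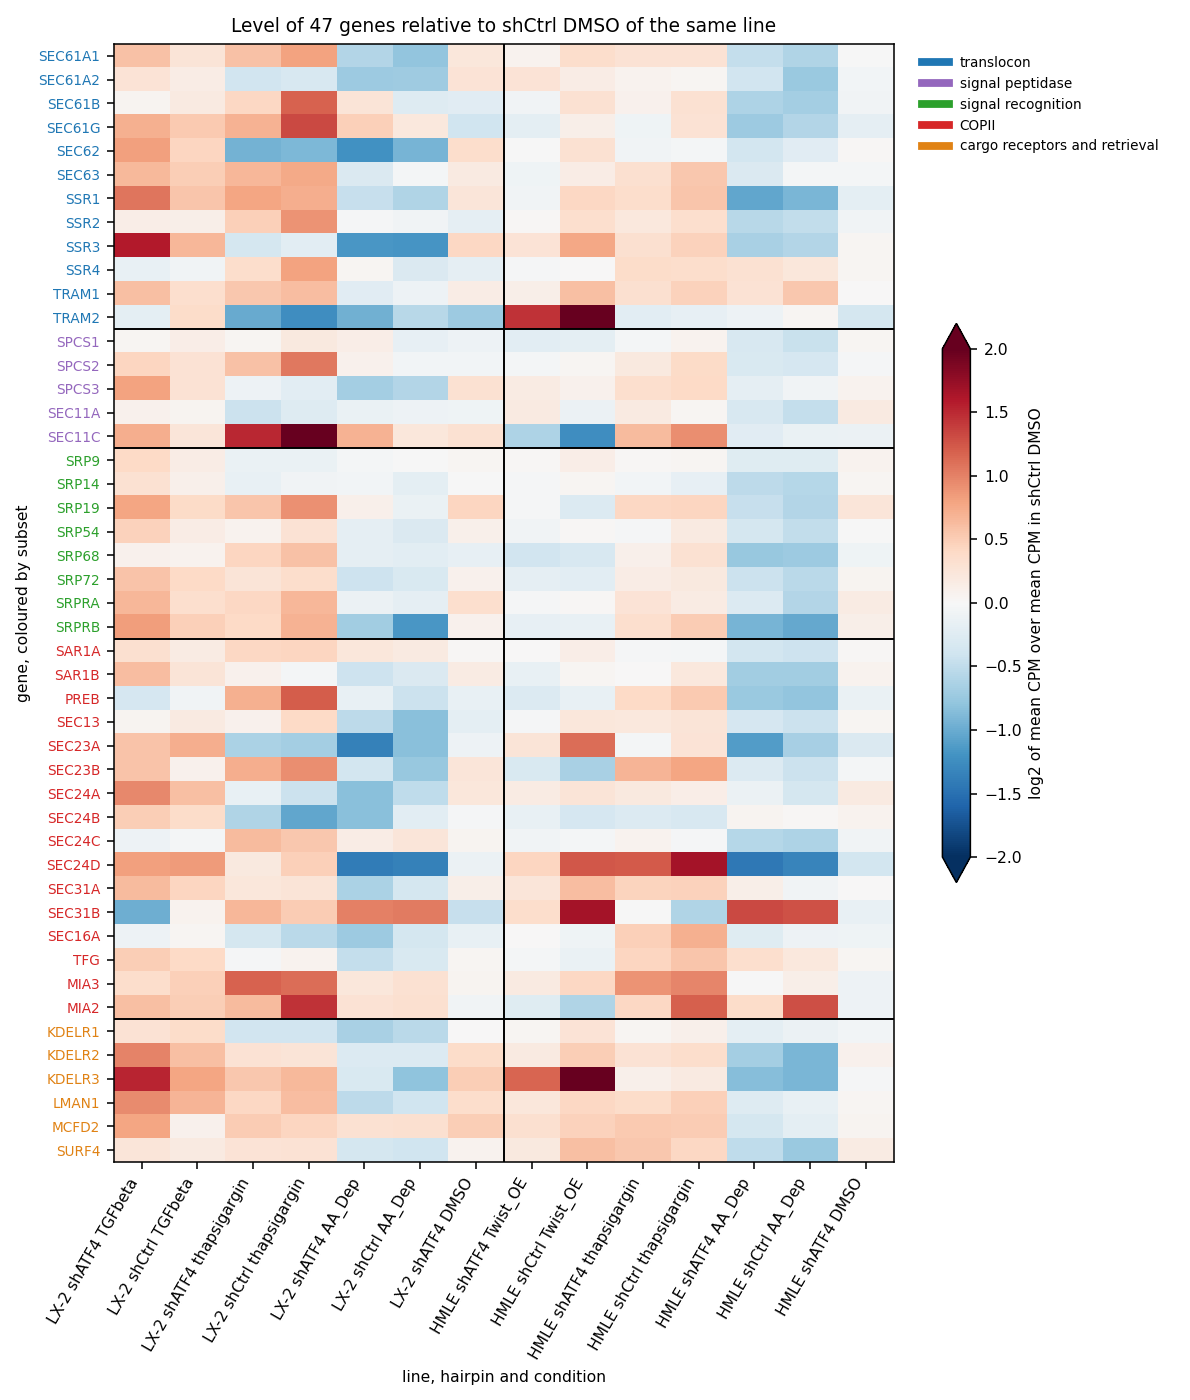
Log2 of the mean CPM of each of the 47 genes (rows, grouped and coloured by subset) over its mean in shCtrl DMSO of the same line, in the other 14 groups (columns), with LX-2 shCtrl thapsigargin shown by replicate 1 alone. AA_Dep columns are mostly blue and thapsigargin columns mostly red in both lines, and TRAM2 and KDELR3 are darkest in HMLE shCtrl Twist_OE.

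Thapsigargin raised most of the machinery in LX-2 shCtrl cells: 29 of the 47 genes rose and 6 fell, where 20.2% of the 18649 genes tested rose and 20.4% fell (edgeR quasi-likelihood test, Benjamini-Hochberg adjusted p under 0.05). The median log2 change of the 47 was 0.46, against 0.01 over all genes. Rises numbered 8 of 12 in the translocon (2 fell), 2 of 5 in signal peptidase, 6 of 8 in signal recognition, 9 of 16 in COPII (3 fell) and 4 of 6 among cargo receptors (1 fell). Stellate markers (COL1A1, COL1A2, COL3A1, PDGFRB, ACTA2 and LUM) fell beside them, 6 of 6, summing to 691 CPM with thapsigargin in replicate 1, against 5090.0 and 5450.0 CPM with DMSO, with LUM at 0 in a thapsigargin library. In bulk RNA, fewer cells of a type and less RNA per cell cannot be told apart, and the part of these markers in the result was not tested. The channel subunits SEC61B and SEC61G both rose. SEC61B had 167 CPM with thapsigargin in replicate 1 (119 CPM in the discordant replicate 2), against 68.1 and 78.9 CPM with DMSO (log2 change 1.21, SE 0.18, adjusted p = 5.2e-05). SEC61G had 91.6 CPM with thapsigargin in replicate 1 (407 CPM in the discordant replicate 2), against 33.6 and 39.3 CPM with DMSO (log2 change 1.35, SE 0.17, adjusted p = 1.1e-05). The pore-forming SEC61A1 rose too (log2 change 0.82), while its paralogue SEC61A2 did not pass the test (-0.29). TRAM2 moved the other way, with 159 CPM with thapsigargin in replicate 1 (48.5 CPM in the discordant replicate 2), against 389 and 365 CPM with DMSO (log2 change -1.22, SE 0.11, adjusted p = 3.2e-07). Its paralogue TRAM1 rose by 0.64 on the log2 scale. SEC62, which helps short chains into the channel, fell by 0.87 on the same scale, and its partner SEC63 rose by 0.78. All of SSR1, SSR2 and SSR4 rose, by 0.74 to 0.93, and SSR3, the remaining subunit of this channel-associated TRAP complex, had a change of -0.18 that did not pass.

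The largest rise among the 47 in LX-2 was that of SEC11C, a catalytic subunit of signal peptidase. SEC11C had 105 CPM with thapsigargin in replicate 1 (162 CPM in the discordant replicate 2), against 20.2 and 22.5 CPM with DMSO (log2 change 2.33, SE 0.13, adjusted p = 1.4e-09). The other catalytic subunit, SEC11A, had a log2 change of -0.22 and did not pass. In the coat machinery, PREB, the exchange factor that activates SAR1, had 199.7 CPM with thapsigargin in replicate 1 (357 CPM in the discordant replicate 2), against 79.2 and 93.8 CPM with DMSO (log2 change 1.23, SE 0.11, adjusted p = 3.5e-07). MIA2, which works with MIA3 in loading bulky cargo, had 28.7 CPM with thapsigargin in replicate 1 (1.30 CPM in the discordant replicate 2), against 11.7 and 9.48 CPM with DMSO (log2 change 1.46, SE 0.18, adjusted p = 1.2e-05). MIA3 rose by 1.14 on the log2 scale, SEC23B by 0.95 and SEC24D by 0.50, whereas the paralogues SEC23A and SEC24B fell by 0.66 and 1.02. With all 16 libraries the median was 0.15, against -0.07 over all genes, and 22 genes passed, 18 higher and 4 lower, of which 21 were also called without the discordant library, and 19.3% of 17772 genes rose and 15.1% fell. SEC11C, SEC61G, PREB, TRAM2 and SEC61B then kept their calls, and MIA2 did not (log2 change 0.55, adjusted p = 0.6); in the discordant library MIA2 was the lowest of all LX-2 libraries.

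In HMLE shCtrl cells thapsigargin raised 33 of the 47 and lowered 3, against 18.6% and 18.2% of 17940 genes tested, with a median log2 change of 0.30 against 0.00 over all genes. Rises numbered 9 of 12 in the translocon, 3 of 5 in signal peptidase, 6 of 8 in signal recognition, 11 of 16 in COPII and 4 of 6 among cargo receptors. SEC24D, a cargo-binding adaptor of the inner coat with a known role in procollagen export, led. SEC24D had 249 and 236 CPM with thapsigargin, against 79.0 and 73.7 CPM with DMSO (log2 change 1.66, SE 0.07, adjusted p = 2.8e-13). MIA2 had 63.9 and 67.3 CPM with thapsigargin, against 29.0 and 28.1 CPM with DMSO (log2 change 1.19, SE 0.06, adjusted p = 2.2e-11). MIA3 had 90.2 and 79.2 CPM with thapsigargin, against 43.7 and 42.8 CPM with DMSO (log2 change 0.96, SE 0.07, adjusted p = 5.2e-09). Thus both loaders of bulky cargo were higher in each treated library than in either vehicle library. SEC11C had 78.7 and 85.9 CPM with thapsigargin, against 41.9 and 44.1 CPM with DMSO (log2 change 0.93, SE 0.08, adjusted p = 1.2e-08). SEC23B of the inner coat had 263 and 255 CPM with thapsigargin, against 152 and 147 CPM with DMSO (log2 change 0.79, SE 0.06, adjusted p = 4.9e-09). SEC16A, a scaffold of ER exit sites, had 301 and 241 CPM with thapsigargin, against 168 and 162 CPM with DMSO (log2 change 0.71, SE 0.10, adjusted p = 1.2e-05). None of these 6, chosen by their change, overlapped between groups. Of the 6 epithelial markers 4 rose and 1 fell (7150.0 and 7230.0 CPM in sum, against 4790.0 and 4800.0 CPM), and their part was not tested. The 3 that fell were TRAM2 (-0.17), SEC24B (-0.33) and SRP14 (-0.18).

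The thapsigargin responses of both lines share no library. Of the 29 genes that rose in LX-2 shCtrl cells, 25 (86.2%) were among the 33 of all 47 that rose in HMLE shCtrl cells (75.8% of those), and TRAM2 and SEC24B fell in both. In HMLE shCtrl cells 18.6% of all genes rose, and the overlap of all genes between the lines was not counted. With 33 of the 47 rising in HMLE, much of the overlap is given by number alone. SEC16A and SEC23A went opposite ways, down in LX-2 and up in HMLE. The difference itself, tested as an interaction of line and thapsigargin, passed for 25 of the 47, where 27.7% of 20308 genes passed. Its largest values were those of SEC11C (log2 difference 1.38, SE 0.15, adjusted p = 9e-08), SEC16A (log2 difference -1.24, SE 0.17, adjusted p = 2.6e-06) and SEC24D (log2 difference -1.18, SE 0.14, adjusted p = 1.8e-07), taken as LX-2 minus HMLE. With all 16 LX-2 libraries 18 passed and 21.6% of genes did, and SEC24D then missed the threshold (log2 difference -2.07, adjusted p = 0.055). The discordant library had 11.1 CPM of SEC24D, against 130 CPM in its replicate.

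Cells with the ATF4 hairpin also responded. In LX-2 shATF4 cells thapsigargin raised 22 of the 47 and lowered 9, against 17.8% and 19.2% of all genes, with a median log2 change of 0.16. Here 5 of 6 stellate markers fell, to 1050.0 and 1070.0 CPM in sum, against 2560.0 and 2530.0 CPM with DMSO, and their part was not tested. SEC62 had 41.5 and 42.5 CPM with thapsigargin, against 96.3 and 109 CPM with DMSO (log2 change -1.27, SE 0.10, adjusted p = 4.9e-08). SEC11C had 64.7 and 57.0 CPM with thapsigargin, against 27.3 and 25.4 CPM with DMSO (log2 change 1.23, SE 0.11, adjusted p = 4.2e-07). MIA3 had 81.8 and 87.1 CPM with thapsigargin, against 39.1 and 38.0 CPM with DMSO (log2 change 1.16, SE 0.12, adjusted p = 1.9e-06). For these 3, chosen by their change, the treated and vehicle libraries were well apart. SEC31B had 11.7 and 15.1 CPM with thapsigargin, against 6.01 and 6.26 CPM with DMSO (log2 change 1.15, SE 0.17, adjusted p = 7.6e-05). SEC61G had 57.0 and 61.4 CPM with thapsigargin, against 25.2 and 30.3 CPM with DMSO (log2 change 1.11, SE 0.15, adjusted p = 2.4e-05). PREB had 137 and 146 CPM with thapsigargin, against 78.9 and 77.3 CPM with DMSO (log2 change 0.88, SE 0.10, adjusted p = 2.9e-06). All 22 risers were also among the 29 of shCtrl, and the 5 genes that fell with both hairpins were SEC62, TRAM2, SEC23A, SEC24B and KDELR1. In a fit with all 16 LX-2 libraries, whose spread is wider, SEC62, SEC11C and SEC31B alone passed of the 47, where 7.86% of genes did.

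In HMLE shATF4 cells 27 rose and 1 fell, against 16.8% and 15.7% of genes, with a median log2 change of 0.20. SEC24D had 188 and 171 CPM with thapsigargin, against 59.9 and 58.5 CPM with DMSO (log2 change 1.60, SE 0.07, adjusted p = 1.2e-12). MIA3 had 82.8 and 78.2 CPM with thapsigargin, against 40.6 and 39.8 CPM with DMSO (log2 change 0.997, SE 0.07, adjusted p = 4.9e-09). SEC11C had 67.5 and 65.4 CPM with thapsigargin, against 40.9 and 38.5 CPM with DMSO (log2 change 0.74, SE 0.08, adjusted p = 4.7e-07). MIA2, second in shCtrl cells, rose by 0.52 on the log2 scale here. SEC23B had 248 and 232 CPM with thapsigargin, against 149 and 140.1 CPM with DMSO (log2 change 0.73, SE 0.06, adjusted p = 2e-08). SEC16A had 246 and 216 CPM with thapsigargin, against 163 and 148 CPM with DMSO (log2 change 0.57, SE 0.10, adjusted p = 0.0002). SSR1, the alpha subunit of the TRAP complex, had 269.7 and 242 CPM with thapsigargin, against 170.3 and 180.0 CPM with DMSO (log2 change 0.54, SE 0.06, adjusted p = 6e-07). The treated and vehicle libraries were apart for each of the 6, which were chosen by their change.

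Across both lines and both hairpins, 17 genes rose with thapsigargin in all 4 comparisons: SEC61A1, SEC63, SSR1, SSR2, SSR4, TRAM1, SPCS2, SEC11C, SRP68, SRPRB, PREB, SEC13, SEC23B, SEC24D, MIA3, MIA2 and SURF4. They take in every subset: SURF4 is a cargo receptor, SRP68 a protein of SRP, SRPRB the membrane anchor of its receptor and SPCS2 an accessory subunit of signal peptidase. SEC24B was the 1 gene that fell in all 4. Of the 16173 genes tested in all 4 comparisons, 4.11% rose and 3.6% fell in every one. In the fit of all 16 LX-2 libraries SEC11C alone of the 47 rose in all 4 and none fell, where 0.959% of 15847 genes rose and 0.726% fell. Set against the TGACGTG letters, 6 of 11 genes with them in their promoter and 19 of 30 without them rose in LX-2 shCtrl cells, with median log2 changes of 0.42 and 0.46, and 3 of each set fell. In LX-2 shATF4 cells 4 of 11 with the letters and 15 of 30 without them rose, 3 and 6 fell, and the medians were 0.06 and 0.22. In HMLE shCtrl cells 8 of 11 and 20 of 30 rose, 0 and 3 fell, and the median was 0.29 in both sets. In HMLE shATF4 cells 7 of 11 and 16 of 30 rose, 0 and 1 fell, and the medians were 0.24 and 0.17.

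**Figure D2:**
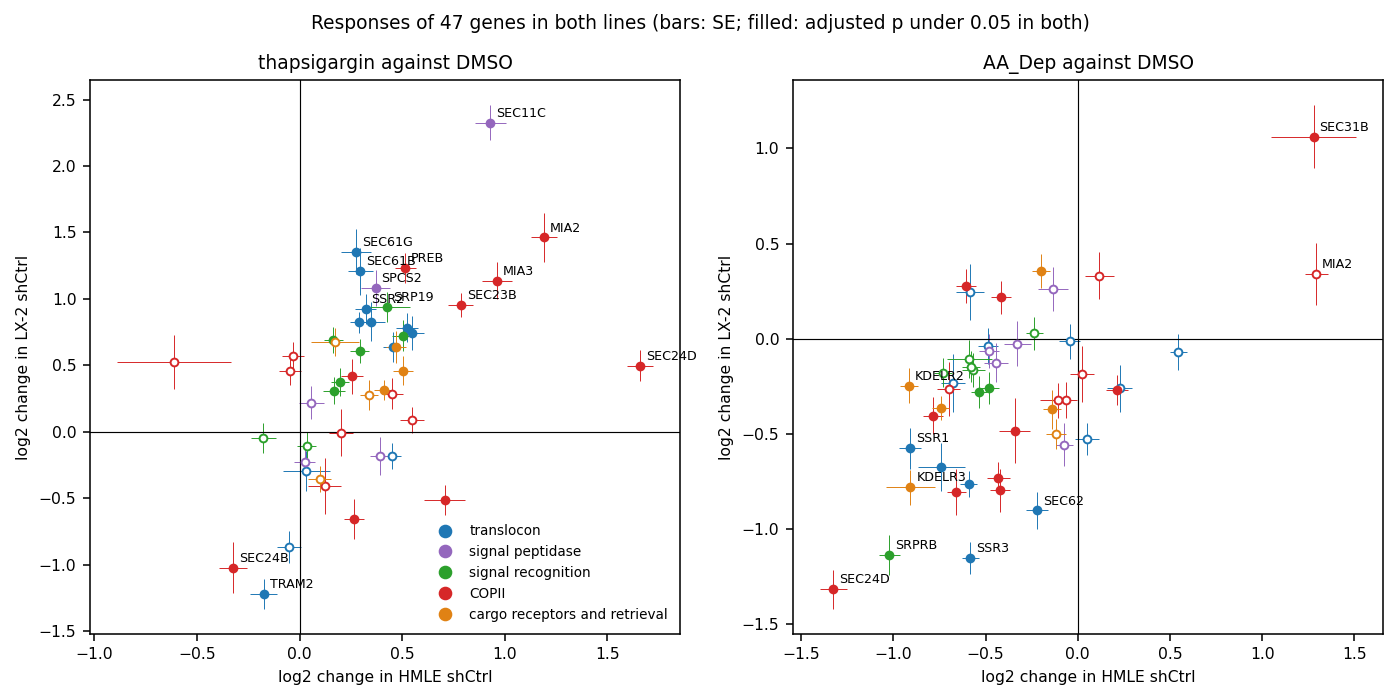
Log2 change (point) with its SE (bars) of each of the 47 genes in LX-2 shCtrl (y) against HMLE shCtrl (x), for thapsigargin and for AA_Dep over DMSO. Filled points passed in both lines. With thapsigargin 25 genes lie high in both, and with AA_Dep 18 lie low in both, SEC24D being lowest in both lines.

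Direct comparison of hairpins under thapsigargin gave few differences in LX-2. In shATF4 cells 4 genes were lower than in shCtrl cells and none higher, where 2.09% of genes tested were lower and 3.11% higher. They were MIA2, SEC11C, SEC61B and PREB, 4 genes that thapsigargin raised. MIA2 had 14.9 and 17.8 CPM in shATF4, against 28.7 CPM in shCtrl in replicate 1 (1.30 CPM in the discordant replicate 2) (log2 change -0.80, SE 0.18, adjusted p = 0.018). SEC11C had 64.7 and 57.0 CPM in shATF4, against 105 CPM in shCtrl in replicate 1 (162 CPM in the discordant replicate 2) (log2 change -0.77, SE 0.13, adjusted p = 0.002). SEC61B had 103 and 92.2 CPM in shATF4, against 167 CPM in shCtrl in replicate 1 (119 CPM in the discordant replicate 2) (log2 change -0.76, SE 0.18, adjusted p = 0.021). PREB had 137 and 146 CPM in shATF4, against 199.7 CPM in shCtrl in replicate 1 (357 CPM in the discordant replicate 2) (log2 change -0.48, SE 0.11, adjusted p = 0.023). Of the 6 stellate markers 3 were higher in shATF4 (1050.0 and 1070.0 CPM in sum, against 691 CPM in shCtrl replicate 1), and their part was not tested. Replicate 1 of shCtrl was above both shATF4 libraries for all 4, which their calls in a fit on that library imply. The discordant replicate 2, which that fit left out, was above them for SEC11C, SEC61B and PREB and below them for MIA2. With all 16 libraries none passed by edgeR's test, where 0.0957% of genes were lower and 0.135% higher at the same adjusted threshold. At an unadjusted p under 0.05 there were 16, with no share over all genes given for that threshold. MIA2 turned to a log2 change of 0.10, adjusted p = 0.93. The counts that follow also stand without a share over all genes. Without shATF4 thapsigargin replicate 1 a single gene passed, without its replicate 2 there were 2, and without either LX-2 shCtrl AA_Dep library, which enters through the shared spread, 12 passed. The count was 7 by DESeq2's Wald test and 8 with no filter on low counts.

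The difference in the thapsigargin response between hairpins, shATF4 minus shCtrl, passed for 9 of the 47 in LX-2, against 6.13% of genes. It was negative for 8 and positive for TRAM2. SEC11C rose less in shATF4 cells (log2 difference -1.10, SE 0.17, adjusted p = 0.001), and SRP19, an assembly protein of SRP, rose in shCtrl cells (log2 change 0.94) but did not pass in shATF4 cells (0.15; log2 difference -0.79, SE 0.15, adjusted p = 0.0049). SRP19 had 28.8 and 27.9 CPM in shATF4, against 36.5 CPM in shCtrl in replicate 1 (41.8 CPM in the discordant replicate 2) with thapsigargin and 26.5 and 25.5 CPM in shATF4, against 18.9 and 19.8 CPM in shCtrl in DMSO. TRAM2 fell less (log2 difference 0.97, SE 0.14, adjusted p = 0.00041). The other 6 were SEC61A1, SSR3, SRPRA, SEC23B, KDELR3 and LMAN1, with differences of -0.43 to -0.61. Of the 6 stellate markers 5 had a positive difference that passed, and their part was not tested. None of the 47 passed with all 16 libraries by edgeR's test (11 at an unadjusted p under 0.05), where 0.27% of genes did at the adjusted threshold. Without shATF4 DMSO replicate 1 the count was 5, without its replicate 2 or without shATF4 thapsigargin replicate 1 it was 4, and without LX-2 shCtrl AA_Dep replicate 1 or 2 it was 16 or 15.

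In HMLE under thapsigargin 14 genes were lower in shATF4 and 1 higher (SEC11A), against 11.9% and 12.3% of genes. The lower genes were 6 of the translocon, 1 of signal peptidase, 3 of signal recognition and 4 of COPII. MIA2 was again first, with 37.9 and 38.5 CPM in shATF4, against 63.9 and 67.3 CPM in shCtrl (log2 change -0.78, SE 0.06, adjusted p = 1.8e-08). SEC24D had 188 and 171 CPM in shATF4, against 249 and 236 CPM in shCtrl (log2 change -0.43, SE 0.06, adjusted p = 3.7e-05). SEC61G had 124 and 116 CPM in shATF4, against 142 and 166 CPM in shCtrl (log2 change -0.37, SE 0.07, adjusted p = 0.0011). For these 3, chosen by their change, every shATF4 library was below every shCtrl library, which adds no support. SEC23A had 98.3 and 102 CPM in shATF4, against 122 and 127 CPM in shCtrl (log2 change -0.31, SE 0.05, adjusted p = 0.00011). SEC11C had 67.5 and 65.4 CPM in shATF4, against 78.7 and 85.9 CPM in shCtrl (log2 change -0.31, SE 0.07, adjusted p = 0.0047). SEC61B had 114 and 108 CPM in shATF4, against 121 and 138 CPM in shCtrl (log2 change -0.22, SE 0.06, adjusted p = 0.013). For these 3, chosen in the same way, the hairpins did not overlap either. The count was 7 without shATF4 thapsigargin replicate 2 and 9 without shCtrl thapsigargin replicate 2. As a difference in response 2 of the 47 passed, close to the 4.56% of all genes: MIA2 (log2 difference -0.68, SE 0.09, adjusted p = 0.0001) and SRPRB (log2 difference -0.28, SE 0.08, adjusted p = 0.043). SRPRB had 119.7 and 114 CPM in shATF4, against 129.7 and 134 CPM in shCtrl with thapsigargin and 95.7 and 103 CPM in shATF4, against 92.3 and 92.0 CPM in shCtrl in DMSO, and it lost its call without 6 of the 8 libraries compared. The count was 1 without shATF4 DMSO replicate 2, either shATF4 Twist_OE library, shATF4 thapsigargin replicate 2, either shCtrl DMSO library or shCtrl thapsigargin replicate 2.

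**Figure D3:**
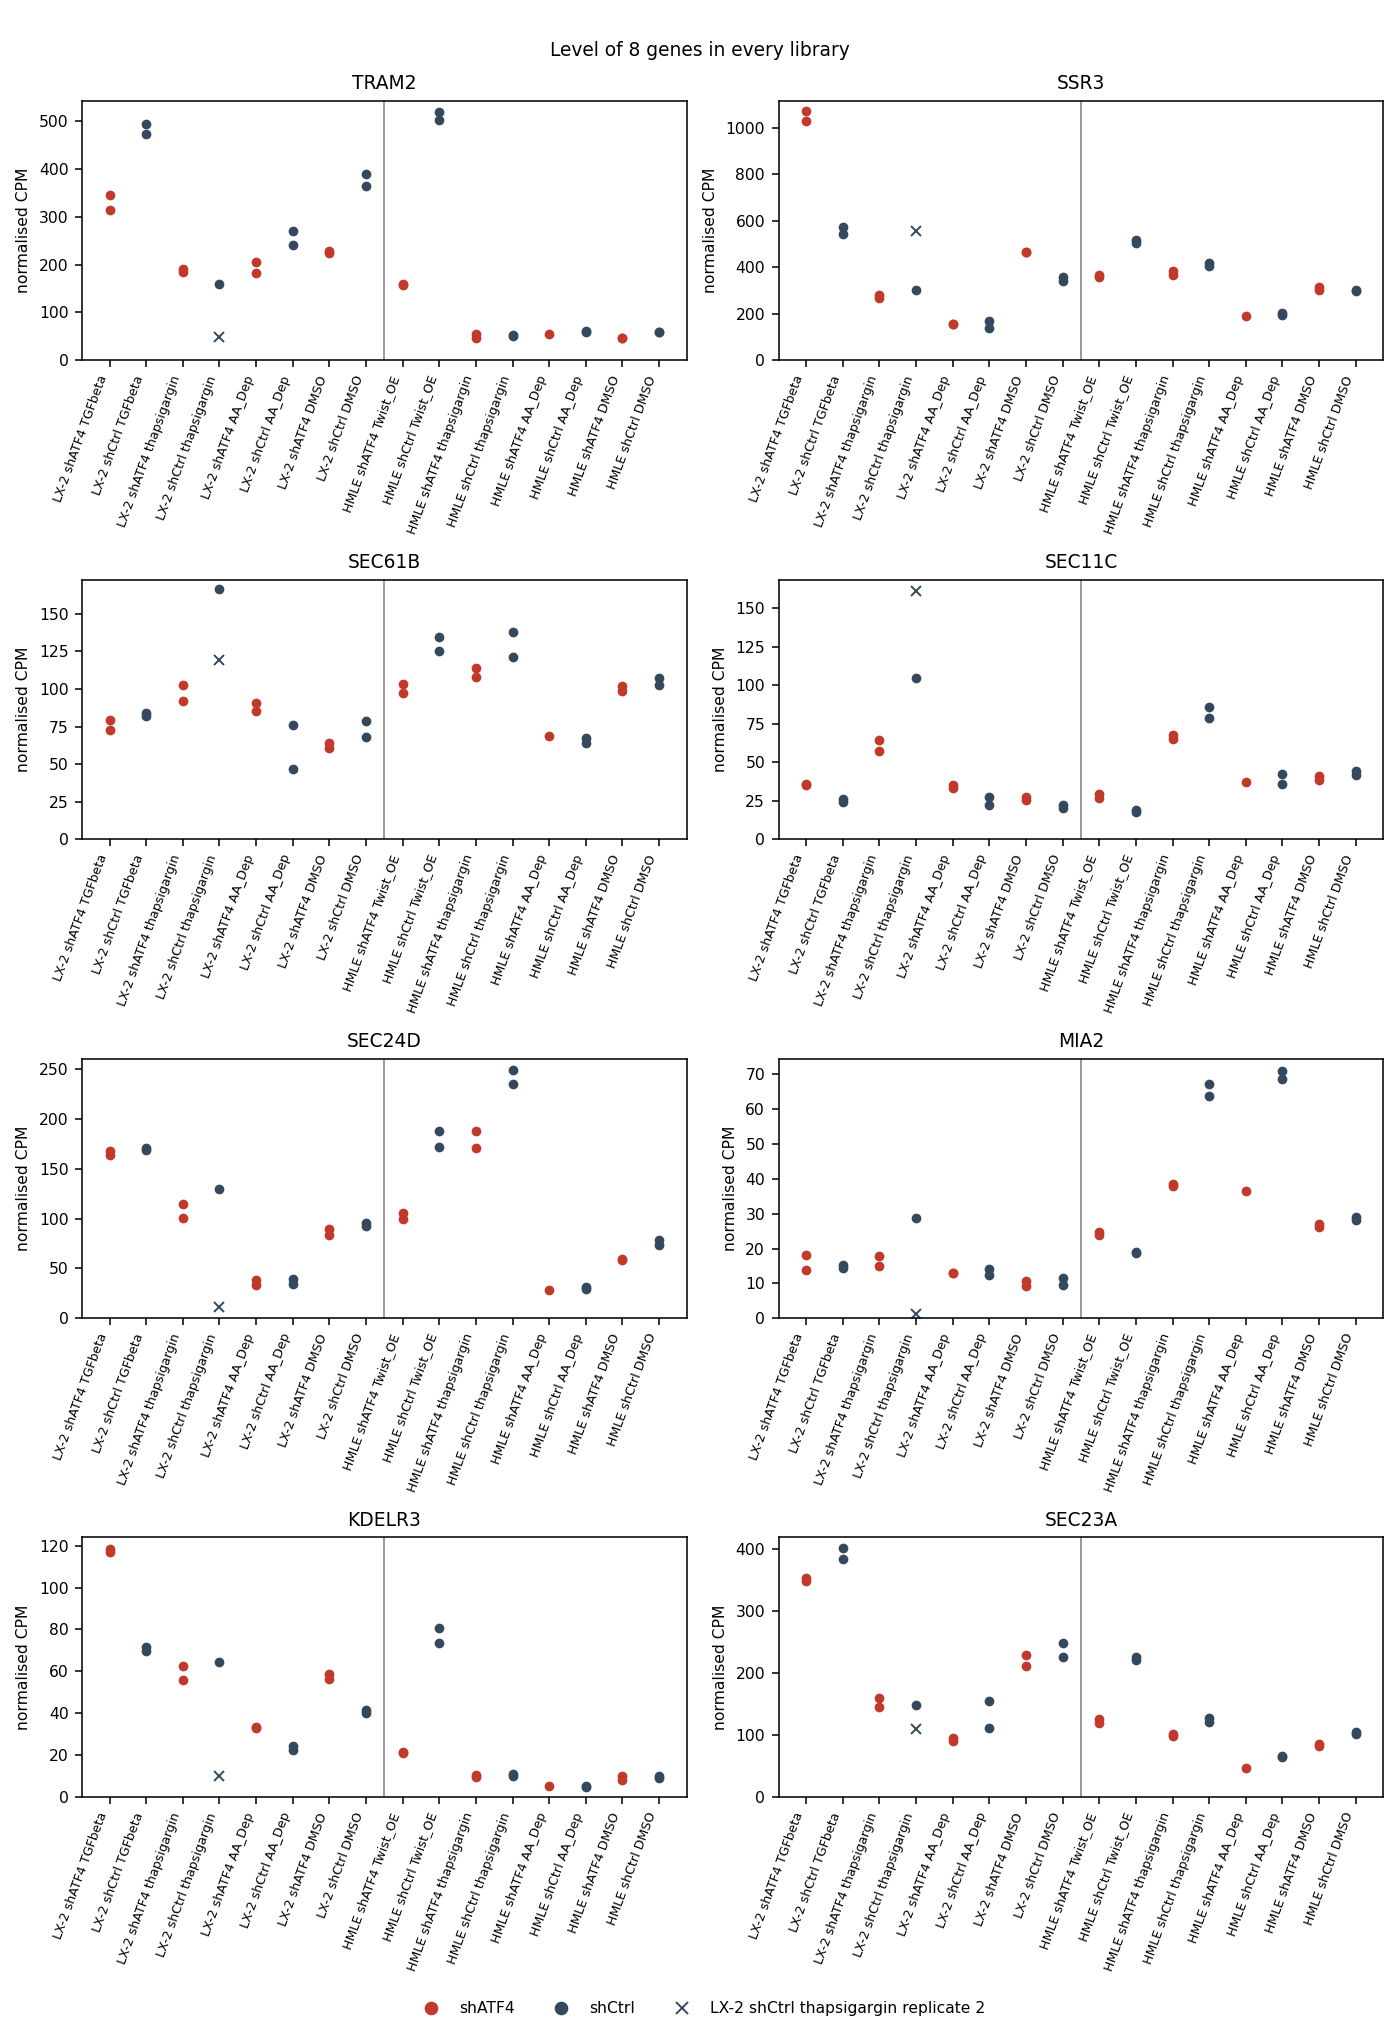
Normalised CPM (y, linear from 0) of 8 genes in each library of the 16 groups (x), with shATF4 in red, shCtrl in dark grey and the discordant LX-2 library as a cross. MIA2 in HMLE stays between 36.7 and 38.5 CPM in the shATF4 thapsigargin and AA_Dep libraries and between 63.9 and 71.1 CPM in their shCtrl counterparts, TRAM2 peaks in HMLE shCtrl Twist_OE, and KDELR3 in LX-2 shATF4 TGFbeta.

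TGFbeta raised 24 of the 47 genes in LX-2 shCtrl cells and lowered none, against 11.1% and 11% of genes tested, with a median log2 change of 0.32 against 0.00 over all genes. Rises numbered 8 of 12 in the translocon, 4 of 8 in signal recognition, 7 of 16 in COPII and 5 of 6 among cargo receptors, and 0 of 5 in signal peptidase. The inner coat and the retrieval receptors led. SEC24D had 172 and 169 CPM with TGFbeta, against 95.5 and 92.4 CPM with DMSO (log2 change 0.88, SE 0.10, adjusted p = 5.6e-06). SEC23A, its partner in the inner coat, had 401 and 384 CPM with TGFbeta, against 249 and 226 CPM with DMSO (log2 change 0.75, SE 0.12, adjusted p = 0.00024). KDELR3 had 71.6 and 69.5 CPM with TGFbeta, against 40.4 and 41.4 CPM with DMSO (log2 change 0.81, SE 0.09, adjusted p = 4.6e-06). Each of these, chosen by its change, was higher in both TGFbeta libraries than in both vehicle libraries. KDELR2 had 324 and 316 CPM with TGFbeta, against 208 and 215 CPM with DMSO (log2 change 0.62, SE 0.09, adjusted p = 0.00012). LMAN1, a lectin that carries glycoproteins such as coagulation factors out of the ER, had 343 and 346 CPM with TGFbeta, against 218 and 209 CPM with DMSO (log2 change 0.71, SE 0.10, adjusted p = 8.3e-05). Its partner MCFD2 did not pass (log2 change 0.12). SSR3 had 571 and 542 CPM with TGFbeta, against 359 and 342 CPM with DMSO (log2 change 0.69, SE 0.08, adjusted p = 1.2e-05). The paralogues SEC23B, SEC24B and SEC24C did not pass, with log2 changes of 0.12, 0.39 and -0.01, while SEC24A rose by 0.62. Of the 6 stellate markers 5 rose with it, and their sum was 16600.0 and 16500.0 CPM with TGFbeta, against 5090.0 and 5450.0 CPM with DMSO; their part in the result was not tested. In a fit with all 16 LX-2 libraries none of the 47 passed by edgeR's test, where 3.15% of genes did at the same adjusted threshold. Of the 47, 6 had an unadjusted p under 0.05, and the median was again 0.32. These groups do not include the discordant library, which widens the shared spread.

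With TGFbeta, shATF4 cells had 14 of the 47 genes higher than shCtrl cells and 2 lower, against 10.9% and 10.7% of genes. The higher ones were 4 of the translocon, 2 of signal peptidase, 4 of signal recognition, 1 of COPII and 3 of the cargo receptors. SSR3, the gamma subunit of the TRAP complex, had 1029 and 1071 CPM in shATF4, against 571 and 542 CPM in shCtrl (log2 change 0.92, SE 0.08, adjusted p = 1.1e-06). SSR1 of the same complex had 300.4 and 312 CPM in shATF4, against 219.5 and 208 CPM in shCtrl (log2 change 0.52, SE 0.11, adjusted p = 0.0025). KDELR3 had 118 and 117 CPM in shATF4, against 71.6 and 69.5 CPM in shCtrl (log2 change 0.74, SE 0.09, adjusted p = 1.8e-05). The hairpins did not overlap for any of these, which were chosen by their change. MCFD2 had 388 and 386 CPM in shATF4, against 244 and 232 CPM in shCtrl (log2 change 0.70, SE 0.09, adjusted p = 4.2e-05). The 2 lower genes were SEC31B and TRAM2. SEC31B had 4.22 and 4.38 CPM in shATF4, against 8.23 and 9.52 CPM in shCtrl (log2 change -1.04, SE 0.19, adjusted p = 0.00084). TRAM2 had 345 and 315 CPM in shATF4, against 496 and 473 CPM in shCtrl (log2 change -0.55, SE 0.09, adjusted p = 0.00023). In the same libraries 5 of 6 stellate markers were lower, summing to 6600.0 and 6530.0 CPM in shATF4, against 16600.0 and 16500.0 CPM in shCtrl, and their part in these differences was not tested. The summed translocon level was 3323 and 3369 CPM in shATF4, against 2689 and 2663 CPM in shCtrl. This sum weights genes by their CPM, with SSR3 a large part of it, and 4 of the 12 translocon genes passed as higher and TRAM2 as lower. Without LX-2 shCtrl AA_Dep replicate 1 or replicate 2 the count was 25. With all 16 libraries the count was 0 by edgeR's test (6 at an unadjusted p under 0.05), where 1.29% of genes passed the adjusted threshold.

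In DMSO the same hairpin comparison gave 10 higher and 1 lower gene, against 6.28% and 5.3% of genes. Of the 10, 9 were also among the 14 higher with TGFbeta, and TRAM2 was lower in both. These comparisons share no library. With TGFbeta 10.9% of all genes were higher in shATF4, and the overlap of all genes was not counted. TRAM2 had 229 and 226 CPM in shATF4, against 389 and 365 CPM in shCtrl (log2 change -0.71, SE 0.09, adjusted p = 5.5e-05). KDELR3 had 56.4 and 58.6 CPM in shATF4, against 40.4 and 41.4 CPM in shCtrl (log2 change 0.51, SE 0.09, adjusted p = 0.0013). MCFD2 had 299 and 326 CPM in shATF4, against 223 and 223 CPM in shCtrl (log2 change 0.51, SE 0.09, adjusted p = 0.0016). In each, chosen by its change, the 4 libraries split by hairpin. SRP19 had 26.5 and 25.5 CPM in shATF4, against 18.9 and 19.8 CPM in shCtrl (log2 change 0.45, SE 0.10, adjusted p = 0.0078). SSR3 had 466 and 466 CPM in shATF4, against 359 and 342 CPM in shCtrl (log2 change 0.43, SE 0.08, adjusted p = 0.0028). KDELR2 had 261 and 283 CPM in shATF4, against 208 and 215 CPM in shCtrl (log2 change 0.38, SE 0.09, adjusted p = 0.013). Of the 6 stellate markers 5 were lower in shATF4 here too (2560.0 and 2530.0 CPM in sum, against 5090.0 and 5450.0 CPM in shCtrl), and their part was not tested. The count was 5 to 7 without any 1 of the 4 DMSO libraries and 17 without either LX-2 shCtrl AA_Dep library. With all 16 libraries it was 0 by edgeR's test (1 at an unadjusted p under 0.05), where 0.242% of genes passed the adjusted threshold. The TGFbeta response itself did not differ detectably between hairpins: by edgeR's test 0 of the 47 passed the interaction, where 0.987% of genes did, with 3 at an unadjusted p under 0.05 and 1 by DESeq2's Wald test. It was 2 without LX-2 shCtrl AA_Dep replicate 1 and 1 without its replicate 2.

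**Figure D4:**
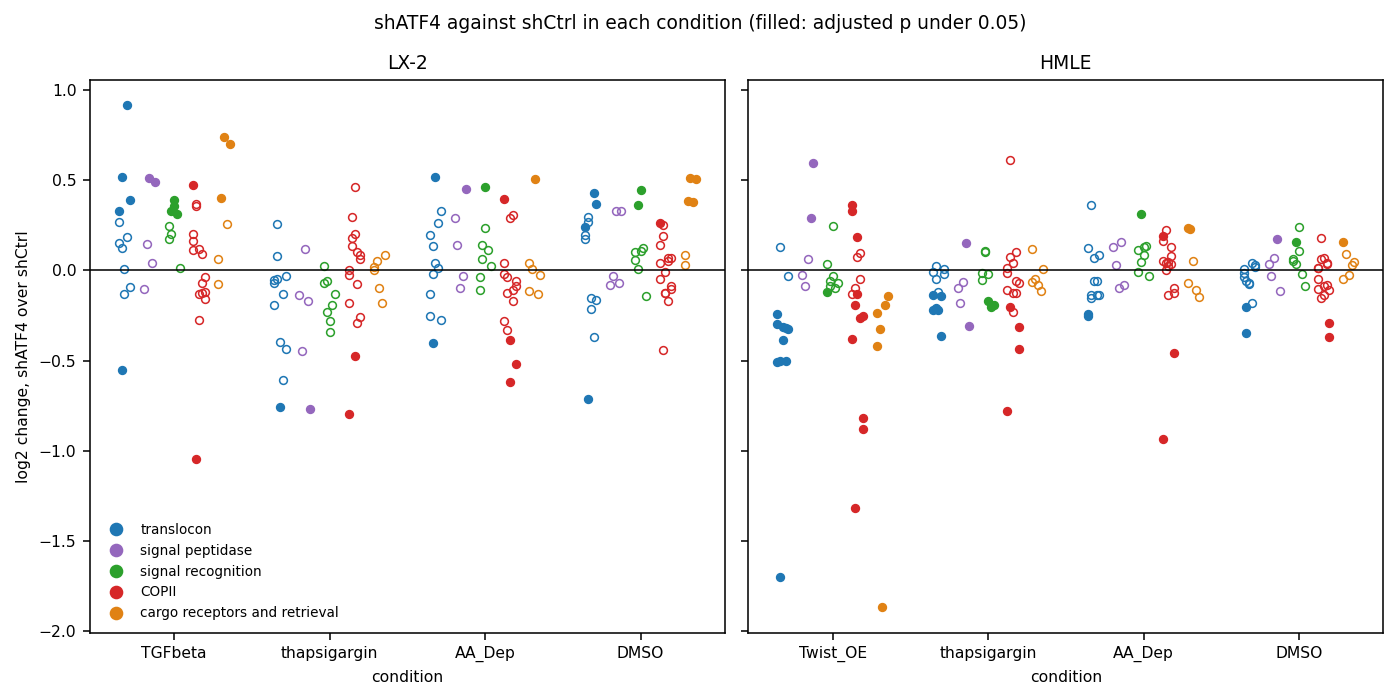
Log2 change of shATF4 over shCtrl for each of the 47 genes (points, coloured by subset) in each condition of LX-2 and HMLE, filled where the adjusted p is under 0.05. In LX-2 with TGFbeta 14 filled points lie above 0 and 2 below, and in HMLE Twist_OE 5 lie above and 25 below.

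In Twist_OE against DMSO the machinery of HMLE shCtrl cells split: 24 of the 47 rose and 10 fell, where 28.3% and 28.9% of genes did. No empty-vector group is among the samples, so Twist and its vector cannot be told apart. All 6 cargo receptor genes and 9 of 12 translocon genes rose, with no fall in either subset. In signal recognition 1 rose and 4 fell, in signal peptidase 2 fell, and in COPII 8 rose and 4 fell. TRAM2 had 520.0 and 503 CPM in Twist_OE, against 58.8 and 58.1 CPM in DMSO (log2 change 3.13, SE 0.06, adjusted p = 2.6e-18). KDELR3 had 80.6 and 73.5 CPM in Twist_OE, against 9.86 and 9.10 CPM in DMSO (log2 change 3.02, SE 0.10, adjusted p = 4e-15). No other gene of the 47 rose as far. SEC31B had 5.06 and 5.995 CPM in Twist_OE, against 1.70 and 1.78 CPM in DMSO (log2 change 1.67, SE 0.22, adjusted p = 2.4e-06). SEC24D had 188 and 172 CPM in Twist_OE, against 79.0 and 73.7 CPM in DMSO (log2 change 1.24, SE 0.07, adjusted p = 4.4e-12). SEC23A had 227 and 222 CPM in Twist_OE, against 101 and 105 CPM in DMSO (log2 change 1.13, SE 0.05, adjusted p = 2.2e-13). Paralogues went apart, with SEC23B at a log2 change of -0.64 and SEC24B at -0.34, both lower, and MIA3 at 0.42, higher, beside MIA2 at -0.60, lower. SEC11C had 17.5 and 19.1 CPM in Twist_OE, against 41.9 and 44.1 CPM in DMSO (log2 change -1.23, SE 0.09, adjusted p = 4.2e-10). In these libraries 6 of 6 stellate markers rose (1880.0 and 1770.0 CPM in sum in Twist_OE, against 19.3 and 22.4 CPM in DMSO, with COL1A2 at 0 in DMSO) and 6 of 6 epithelial markers fell (320.0 and 313 CPM, against 4790.0 and 4800.0 CPM), and their part in the result was not tested. As they rose in a mammary line, the stellate markers are not particular to stellate cells. Of the 24 genes that rose with Twist_OE in HMLE, 17 (70.8%) were among the 24 that rose with TGFbeta in LX-2 (70.8%), a pair of comparisons with no library in common. Among all genes 11.1% rose with TGFbeta in LX-2, and the overlap of all genes was not counted. SRP19, SRP72, SRPRB and MIA2 rose with TGFbeta in LX-2 and fell with Twist_OE in HMLE.

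In Twist_OE much of the machinery was lower with the ATF4 hairpin. Whether Twist itself was at the same level with both hairpins is not given here. Compared with shCtrl, 25 of the 47 were lower in shATF4 and 5 higher, against 23.9% and 23.3% of genes: 10 of 12 in the translocon, 6 of 6 cargo receptors, 8 of 16 in COPII (3 higher) and 1 of 8 in signal recognition were lower, and 2 of 5 in signal peptidase were higher. KDELR3 had 21.3 and 21.1 CPM in shATF4, against 80.6 and 73.5 CPM in shCtrl (log2 change -1.87, SE 0.09, adjusted p = 2.6e-12). TRAM2 had 159 and 158 CPM in shATF4, against 520.0 and 503 CPM in shCtrl (log2 change -1.70, SE 0.06, adjusted p = 1.4e-14). SEC31B had 1.96 and 2.48 CPM in shATF4, against 5.06 and 5.995 CPM in shCtrl (log2 change -1.32, SE 0.21, adjusted p = 3.8e-05). All 3 stayed above the levels of shATF4 cells in DMSO, where KDELR3 had 8.38 and 10.3 CPM in shATF4 DMSO, TRAM2 46.0 and 46.0 CPM in shATF4 DMSO and SEC31B 1.67 and 1.47 CPM in shATF4 DMSO. SEC23A had 126 and 119 CPM in shATF4, against 227 and 222 CPM in shCtrl (log2 change -0.88, SE 0.05, adjusted p = 1.4e-11). SEC24D had 106 and 99.2 CPM in shATF4, against 188 and 172 CPM in shCtrl (log2 change -0.82, SE 0.06, adjusted p = 2.7e-09). SEC11C was higher, with 29.3 and 26.5 CPM in shATF4, against 17.5 and 19.1 CPM in shCtrl (log2 change 0.60, SE 0.09, adjusted p = 2e-05). Here 6 of 6 epithelial markers were higher (4040.0 and 3920.0 CPM in sum in shATF4, against 320.0 and 313 CPM in shCtrl) and 6 of 6 stellate markers lower (219 and 254 CPM, against 1880.0 and 1770.0 CPM, none at 0), and their part in the result was not tested.

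As a difference in the Twist_OE response, shATF4 minus shCtrl, 23 of the 47 passed, against 29.7% of genes, 20 negative and 3 positive. The largest were those of KDELR3 (log2 difference -1.84, SE 0.15, adjusted p = 9.4e-09), TRAM2 (log2 difference -1.35, SE 0.09, adjusted p = 3.9e-10) and SEC31B (log2 difference -1.17, SE 0.34, adjusted p = 0.013). The summed translocon level was 2147 and 2100.0 CPM in shATF4 Twist_OE, against 3108 and 2999 CPM in shCtrl Twist_OE. In DMSO the sum was 1890.0 and 1910.0 CPM in shATF4 and 1941 and 1971 CPM in shCtrl. It weights genes by their CPM and includes TRAM2.

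**Figure D5:**
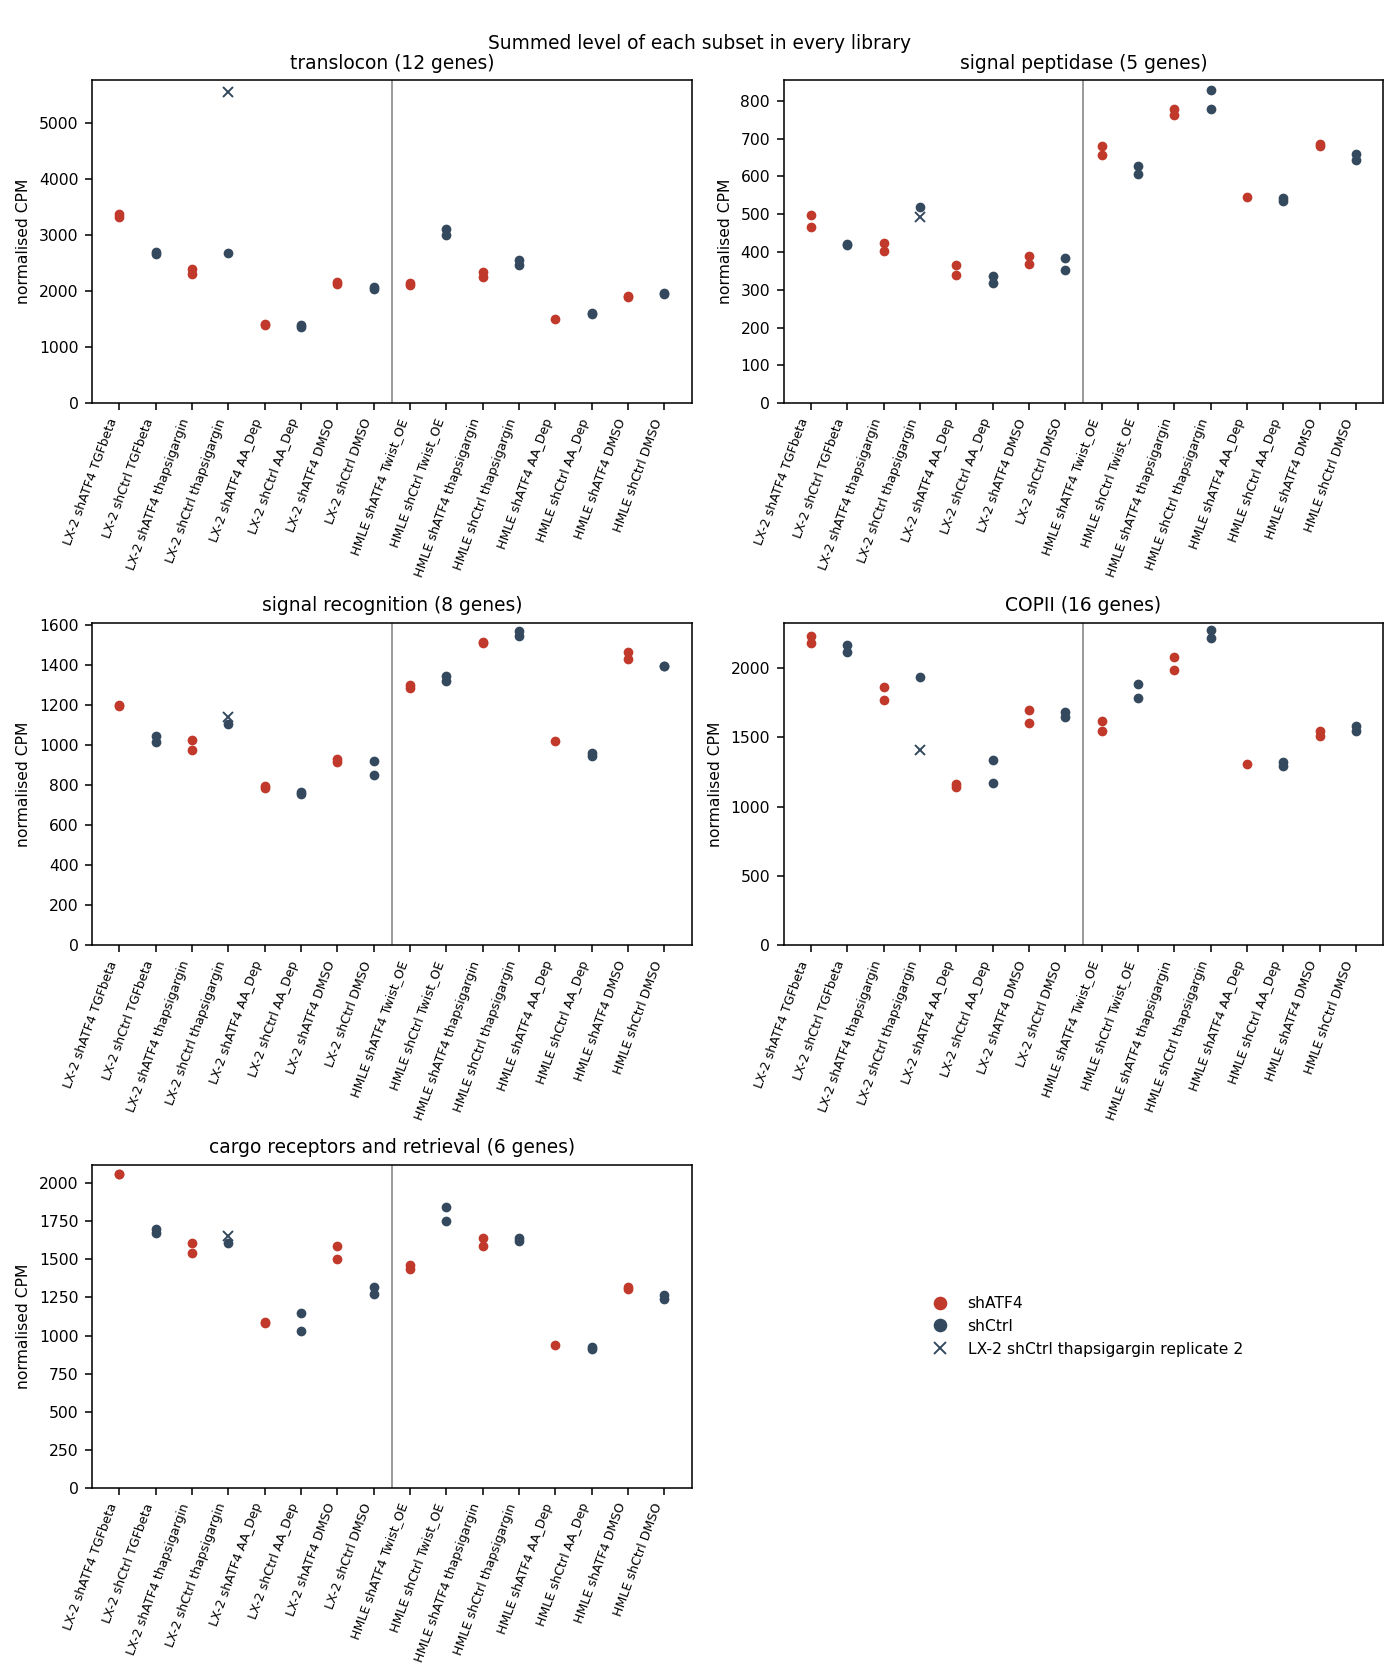
Summed normalised CPM (y, linear from 0) of each subset in each library of the 16 groups (x), with shATF4 in red, shCtrl in dark grey and the discordant LX-2 library as a cross. AA_Dep libraries are lowest in the translocon and COPII panels of their line, and the cross stands at 5551 CPM in the translocon panel, beside 2684 CPM for its replicate.

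AA_Dep lowered the machinery in both lines. In LX-2 shCtrl cells 24 of the 47 fell and 5 rose, against 22.7% and 22.8% of genes, with a median log2 change of -0.26 against 0.02 over all genes. Falls numbered 6 of 12 in the translocon, 1 of 5 in signal peptidase, 3 of 8 in signal recognition, 9 of 16 in COPII and 5 of 6 among cargo receptors. SEC24D had 34.5 and 39.4 CPM in AA_Dep, against 95.5 and 92.4 CPM in DMSO (log2 change -1.32, SE 0.10, adjusted p = 4.1e-08). SSR3 had 141 and 169 CPM in AA_Dep, against 359 and 342 CPM in DMSO (log2 change -1.15, SE 0.08, adjusted p = 2.1e-08). SRPRB, the membrane anchor of the SRP receptor, had 19.7 and 20.7 CPM in AA_Dep, against 46.4 and 44.2 CPM in DMSO (log2 change -1.14, SE 0.10, adjusted p = 2.7e-07). The AA_Dep libraries lay below the vehicle libraries for all 3, which were chosen by their change. SEC62 had 39.4 and 45.4 CPM in AA_Dep, against 82.6 and 79.1 CPM in DMSO (log2 change -0.90, SE 0.10, adjusted p = 1.3e-06). SEC23A had 111 and 155 CPM in AA_Dep, against 249 and 226 CPM in DMSO (log2 change -0.81, SE 0.12, adjusted p = 4.9e-05). SEC31B moved up, with 17.5 and 17.2 CPM in AA_Dep, against 8.24 and 8.71 CPM in DMSO (log2 change 1.06, SE 0.16, adjusted p = 6.7e-05). All 6 stellate markers fell too, summing to 996 and 909 CPM in AA_Dep, against 5090.0 and 5450.0 CPM in DMSO, with none at 0, and their part in the result was not tested. With all 16 LX-2 libraries 7 of the 47 passed (1 higher, 6 lower), against 13% of 17772 genes.

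In HMLE shCtrl cells AA_Dep lowered 33 of the 47 and raised 5, against 32.6% and 29.1% of genes, with a median log2 change of -0.44 against 0.00. All 8 signal recognition genes fell, and so did 8 of 12 in the translocon, 3 of 5 in signal peptidase, 9 of 16 in COPII and 5 of 6 cargo receptors. SEC24D had 29.1 and 31.7 CPM in AA_Dep, against 79.0 and 73.7 CPM in DMSO (log2 change -1.32, SE 0.07, adjusted p = 1.9e-11). SRPRB had 46.1 and 44.6 CPM in AA_Dep, against 92.3 and 92.0 CPM in DMSO (log2 change -1.02, SE 0.06, adjusted p = 2.7e-11). KDELR2 had 173 and 167 CPM in AA_Dep, against 329 and 314 CPM in DMSO (log2 change -0.92, SE 0.05, adjusted p = 6.3e-12). In each, chosen by its change, both AA_Dep libraries were far below both vehicle libraries. SSR1 had 103 and 111 CPM in AA_Dep, against 206 and 196 CPM in DMSO (log2 change -0.91, SE 0.06, adjusted p = 2e-10). MIA2 went up, with 68.8 and 71.1 CPM in AA_Dep, against 29.0 and 28.1 CPM in DMSO (log2 change 1.29, SE 0.06, adjusted p = 2.9e-12). SEC31B also rose, with 4.71 and 3.74 CPM in AA_Dep, against 1.70 and 1.78 CPM in DMSO (log2 change 1.28, SE 0.23, adjusted p = 8.9e-05). Of the 6 epithelial markers 4 rose and 2 fell (5200.0 and 5380.0 CPM in sum in AA_Dep, against 4790.0 and 4800.0 CPM in DMSO), and their part was not tested. The other risers were TRAM1 (0.55), SSR4 (0.23) and TFG (0.21), an exit-site protein.

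Of the 24 genes that fell in LX-2, 18 (75.0%) were among the 33 of all 47 that fell in HMLE (54.5%), again with no library in common. Among all genes 32.6% fell in HMLE, and their overlap between the lines was not counted. With 33 of the 47 falling in HMLE, most of any set of them would be shared by number alone. SAR1A, SEC24C and MCFD2 rose in LX-2 and fell in HMLE, and TFG fell in LX-2 and rose in HMLE. The interaction of line and AA_Dep passed for 26 of the 47, against 40.3% of genes. It was largest for MIA2 (log2 difference -0.98, SE 0.17, adjusted p = 3.2e-05), for SEC24C, a cargo adaptor of the inner coat (log2 difference 0.86, SE 0.10, adjusted p = 2.5e-07), and for SEC61G (log2 difference 0.81, SE 0.17, adjusted p = 0.00049), as LX-2 minus HMLE. SEC24C had 84.3 and 82.9 CPM in AA_Dep, against 68.0 and 72.7 CPM in DMSO in LX-2 and 63.8 and 63.0 CPM in AA_Dep, against 99.2 and 94.2 CPM in DMSO in HMLE. SEC61G had 49.0 and 35.6 CPM in AA_Dep, against 33.6 and 39.3 CPM in DMSO in LX-2 and 88.2 and 80.5 CPM in AA_Dep, against 125 and 129 CPM in DMSO in HMLE, and MIA2 in LX-2 had 12.3 and 14.01 CPM in AA_Dep, against 11.7 and 9.48 CPM in DMSO. The 2 lines thus differed in direction for SEC24C. Over all 16 LX-2 libraries 2 of the 47 passed, against 14.5% of 20689 genes.

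In AA_Dep the hairpins differed for 9 genes in LX-2, 5 higher and 4 lower in shATF4, against 3.87% and 6.04% of genes. SEC24B had 27.9 and 31.2 CPM in shATF4, against 37.2 and 53.5 CPM in shCtrl (log2 change -0.62, SE 0.15, adjusted p = 0.016). SEC23A had 90.1 and 95.7 CPM in shATF4, against 111 and 155 CPM in shCtrl (log2 change -0.52, SE 0.12, adjusted p = 0.013). SEC61B had 90.5 and 85.4 CPM in shATF4, against 75.8 and 46.6 CPM in shCtrl (log2 change 0.52, SE 0.15, adjusted p = 0.04). In all 3 the shCtrl libraries were further apart than the shATF4 ones. KDELR3 had 33.3 and 33.0 CPM in shATF4, against 22.4 and 24.2 CPM in shCtrl (log2 change 0.51, SE 0.09, adjusted p = 0.0027). SRPRB had 29.2 and 26.6 CPM in shATF4, against 19.7 and 20.7 CPM in shCtrl (log2 change 0.46, SE 0.10, adjusted p = 0.011). SEC11C had 35.2 and 33.5 CPM in shATF4, against 27.6 and 22.5 CPM in shCtrl (log2 change 0.45, SE 0.11, adjusted p = 0.019). The remaining ones were SEC23B, higher, and SEC16A and TRAM2, lower. This count rests on single libraries: it was 25 without shCtrl AA_Dep replicate 1, 5 without its replicate 2, 2 without shATF4 AA_Dep replicate 1 and 3 without its replicate 2. With all 16 LX-2 libraries the count was 0 by edgeR's test (3 at an unadjusted p under 0.05), where 0.09% of genes passed the adjusted threshold.

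The AA_Dep response differed between hairpins for 6 of the 47 genes in LX-2, close to the 10.6% of all genes. SEC61B (log2 difference 0.73, SE 0.21, adjusted p = 0.041), SEC62 (log2 difference -0.65, SE 0.13, adjusted p = 0.0067) and MCFD2 (log2 difference -0.53, SE 0.13, adjusted p = 0.015) had the largest differences, and SEC63, SSR3 and LMAN1 the others. SEC62 had 33.6 and 36.5 CPM in shATF4, against 39.4 and 45.4 CPM in shCtrl in AA_Dep and 96.3 and 109 CPM in shATF4, against 82.6 and 79.1 CPM in shCtrl in DMSO. MCFD2 had 268 and 282 CPM in shATF4, against 251 and 307 CPM in shCtrl in AA_Dep. SEC61B had 64.4 and 60.7 CPM in shATF4, against 68.1 and 78.9 CPM in shCtrl in DMSO. Of the 6 stellate markers 5 had a positive difference that passed, and their part was not tested. The count was 25 without shCtrl AA_Dep replicate 1 and 11 without shCtrl DMSO replicate 1. It was 1 without shATF4 AA_Dep replicate 1, shATF4 DMSO replicate 2 or shCtrl DMSO replicate 2, and 2 without shATF4 AA_Dep replicate 2, shATF4 DMSO replicate 1 or any TGFbeta library. It was 12 by DESeq2's Wald test and 15 with no filter on low counts, without a share over all genes for any of these settings. With all 16 it was 0 by edgeR's test (1 at an unadjusted p under 0.05), where 0.0675% of genes passed the adjusted threshold.

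In HMLE AA_Dep the shATF4 group was 1 library, assumed to vary like the other HMLE groups. On that basis 4 genes were higher and 4 lower in shATF4, against 9.77% and 7.09% of genes. MIA2 had 36.7 CPM in shATF4 in the 1 library, against 68.8 and 71.1 CPM in shCtrl (log2 change -0.93, SE 0.08, adjusted p = 8.2e-08). SEC23A had 47.5 CPM in shATF4 in the 1 library, against 64.4 and 65.8 CPM in shCtrl (log2 change -0.46, SE 0.07, adjusted p = 0.0001). MIA2 and SEC23A, chosen by their change, were below either shCtrl library. In each direction the called share of the 47 was close to that of all genes, so the values describe single genes. SRPRA, the partner of SRPRB in the SRP receptor, had 185 CPM in shATF4 in the 1 library, against 147 and 151 CPM in shCtrl (log2 change 0.31, SE 0.06, adjusted p = 0.00097). TRAM1 had 299 CPM in shATF4 in the 1 library, against 365 and 348 CPM in shCtrl (log2 change -0.25, SE 0.06, adjusted p = 0.0053). The 1 shATF4 library lay outside the shCtrl pair in each. SEC63 had 106 CPM in shATF4 in the 1 library, against 125 and 125 CPM in shCtrl (log2 change -0.24, SE 0.07, adjusted p = 0.023). SURF4 had 201 CPM in shATF4 in the 1 library, against 170.2 and 171 CPM in shCtrl (log2 change 0.24, SE 0.06, adjusted p = 0.0069). The response differed for MIA2 alone of the 47 (log2 difference -0.83, SE 0.10, adjusted p = 4e-05), against 5.09% of genes. A further gene passed, making 2, without shATF4 DMSO replicate 1, shCtrl AA_Dep replicate 2, either shCtrl thapsigargin library or shCtrl Twist_OE replicate 1.

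In HMLE DMSO 3 of the 47 genes were higher and 4 lower in shATF4, close to the shares of all genes, 6.08% and 6.72%. SEC24D had 59.9 and 58.5 CPM in shATF4, against 79.0 and 73.7 CPM in shCtrl (log2 change -0.37, SE 0.07, adjusted p = 0.0011). TRAM2 had 46.0 and 46.0 CPM in shATF4, against 58.8 and 58.1 CPM in shCtrl (log2 change -0.35, SE 0.07, adjusted p = 0.0014). SEC23A had 85.1 and 83.3 CPM in shATF4, against 101 and 105 CPM in shCtrl (log2 change -0.29, SE 0.05, adjusted p = 0.00057). These 3, chosen by their change, did not overlap between hairpins. SSR1 had 170.3 and 180.0 CPM in shATF4, against 206 and 196 CPM in shCtrl (log2 change -0.20, SE 0.06, adjusted p = 0.027). SEC11A had 193 and 192 CPM in shATF4, against 174 and 166 CPM in shCtrl (log2 change 0.17, SE 0.05, adjusted p = 0.033). SRPRA had 258 and 240.1 CPM in shATF4, against 228 and 217 CPM in shCtrl (log2 change 0.16, SE 0.05, adjusted p = 0.033). The count was 4 without shATF4 DMSO replicate 2 and 3 without either shCtrl DMSO library. MIA2 had 27.1 and 26.3 CPM in shATF4, against 29.0 and 28.1 CPM in shCtrl and a log2 change of -0.10 that did not pass. In Twist_OE, by contrast, MIA2 was higher in shATF4 (log2 change 0.36, SE 0.07, adjusted p = 0.00029), with 23.9 and 24.6 CPM in shATF4, against 18.6 and 18.9 CPM in shCtrl.

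At baseline the lines themselves differed: in shCtrl DMSO 14 of the 47 were higher in LX-2 and 26 lower, against 35.9% and 34.5% of 20308 genes. All 8 signal recognition and all 5 signal peptidase genes were lower in LX-2. TRAM2 had 389 and 365 CPM in LX-2, against 58.8 and 58.1 CPM in HMLE (log2 change 2.69, SE 0.08, adjusted p = 2.9e-20). SEC31B had 8.24 and 8.71 CPM in LX-2, against 1.70 and 1.78 CPM in HMLE (log2 change 2.28, SE 0.20, adjusted p = 1.6e-10). KDELR3 had 40.4 and 41.4 CPM in LX-2, against 9.86 and 9.10 CPM in HMLE (log2 change 2.11, SE 0.10, adjusted p = 2.1e-16). The lines did not overlap for any of these 3, which were chosen by their change. SEC61G had 33.6 and 39.3 CPM in LX-2, against 125 and 129 CPM in HMLE (log2 change -1.80, SE 0.12, adjusted p = 7.6e-13). SPCS3, an accessory subunit of signal peptidase, had 84.5 and 80.6 CPM in LX-2, against 232 and 229 CPM in HMLE (log2 change -1.48, SE 0.09, adjusted p = 3.6e-14). MIA2 had 11.7 and 9.48 CPM in LX-2, against 29.0 and 28.1 CPM in HMLE (log2 change -1.43, SE 0.12, adjusted p = 4.5e-11). Line and culture cannot be told apart. Over all 16 LX-2 libraries 23 of the 47 passed, against 51.5% of 20689 genes.

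The neighbouring lists of the same route give the setting for thapsigargin in shCtrl cells. Of all genes 20.2% rose and 20.4% fell in LX-2, and 18.6% rose and 18.2% fell in HMLE. Of 12 oligosaccharyltransferase genes, which attach glycans to chains leaving the translocon, 7 rose and 2 fell in LX-2 (median log2 change 0.62) and 5 rose and 1 fell in HMLE (0.12), with MAGT1 (0.93 in LX-2, 0.97 in HMLE) and OSTC (0.85 and 0.68) first in both. Of 12 COPI genes, the coat of the return route, 5 rose in LX-2 (0.24) and 7 in HMLE (0.27) and none fell. COPA rose in both, by 0.79 and 0.58 on the log2 scale. In LX-2 COPZ2 came next (0.61), and in HMLE COPG1 (0.58). Of 8 p24 genes, cargo adaptors of both coats, 4 rose and 1 fell in LX-2 (0.39) and 5 rose and 1 fell in HMLE (0.33), led by TMED2 (1.16) and TMED7 (0.68) in LX-2 and by TMED7 (0.98) and TMED10 (0.49) in HMLE. Of 13 genes of the parallel insertion routes, the tail-anchor (GET) pathway and the EMC complex, 6 rose and 3 fell in LX-2 (0.39) and 2 rose and 2 fell in HMLE (0.02), with EMC10 (-1.79) and GET4 (1.71) first in LX-2 and SGTA (-0.54) and EMC2 (0.28) in HMLE. As a check of the treatment, of 9 stress readouts 7 rose and 1 fell in LX-2 and 8 rose in HMLE, with the ATF4 target DDIT3 at log2 changes of 5.32 and 5.17. In LX-2 with all 16 libraries the counts were 3 higher and 1 lower for oligosaccharyltransferase (median 0.40), 2 higher for COPI (-0.13), 2 higher and 1 lower for p24 (0.21), 3 higher and 2 lower for the insertion routes (0.29) and 6 higher and 1 lower for the stress readouts. That fit had 19.3% of all genes higher and 15.1% lower.
In cells with the ATF4 hairpin, thapsigargin raised 5 and lowered 2 of the oligosaccharyltransferase genes in LX-2, led by MAGT1 (0.77) and OSTC (0.59), and raised 6 and lowered 1 in HMLE, led by the same pair (0.79 and 0.61). COPI had 4 higher and 1 lower in LX-2, with GBF1 (0.61) and ARF1 (0.45) first, and 9 higher in HMLE, with COPA (0.58) and COPZ2 (0.50) first. The p24 family had 4 higher and 2 lower in LX-2 (TMED2 0.78, TMED1 -0.67) and 4 higher and 1 lower in HMLE (TMED7 0.79, TMED10 0.49). The insertion routes had 5 higher and 4 lower in LX-2 (EMC10 -1.82, GET4 1.31) and 2 higher and 2 lower in HMLE (SGTA -0.35, EMC2 0.20). Of all genes in shATF4 cells 17.8% rose and 19.2% fell in LX-2, and 16.8% rose and 15.7% fell in HMLE. In the LX-2 fit with all 16 libraries, 3 of the 45 neighbouring genes passed in shATF4 cells, where 7.86% of all genes did. The 3 were all lower and of the insertion routes, and 9 of the 45 had an unadjusted p under 0.05 by edgeR's test.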

How the data were processed

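Raw gene counts were deposited per sample for 32 RNA samples (RNeasy RNA and SMARTer libraries, per the labels' protocols); 9 ChIP samples were not analysed here. The submitters' processing notes name cutadapt, Bowtie2, STAR, HOMER, featureCounts, DESeq, hg19 and hg38, with no roles or versions; strand settings are not given in the sources used here. Ensembl IDs were matched to symbols for 58207 of 58735 genes.

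Identical files were counted as 1 library, and LX-2 shCtrl thapsigargin replicate 2 was left out of the main LX-2 fit because it was discordant. The model was fitted per line over its 8 groups, or over both lines for comparisons between them, with edgeR 4.0.16 (R 4.3.3): filterByExpr, TMM, the quasi-likelihood F test and Benjamini-Hochberg adjustment over all genes tested, threshold 0.05. The SE is the absolute log2 change divided by the square root of F. Shares of all genes use the adjusted threshold throughout, also beside a count at an unadjusted p. CPM values use TMM factors over all 31 libraries. The tests were tested on simulated data for LX-2 TGFbeta and HMLE thapsigargin against DMSO in shCtrl cells. Interactions and comparisons with a group of 1 library were not tested in that way.

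The values of every library are given for the 6 called genes with the largest change per comparison and the 3 per interaction, with paralogues and the highest-level gene of each subset. Genes chosen by their change lie apart between groups for that reason, so such statements add no support to the calls. Members and lists were chosen with earlier results of these data known. Alternatives were all 16 LX-2 libraries, DESeq2 1.42.0, its size factors, no filter, a replicate block and leaving out each library. Figures used matplotlib 3.10.9.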

Additional observations from a re-analysis of the deposited data

Results flagged for a closer look

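Each result here is a response that differed between hairpins or lines by a test of the difference itself (edgeR quasi-likelihood test, Benjamini-Hochberg adjusted), and no explanation was weighed. The hairpin differences are shATF4 minus shCtrl on the log2 scale. In LX-2 the thapsigargin response differed for SEC11C (-1.10, adjusted p = 0.001), TRAM2 (0.97, adjusted p = 0.00041) and SRP19 (-0.79, adjusted p = 0.0049), all without the discordant library. The LX-2 AA_Dep response differed for SEC61B (0.73, adjusted p = 0.041), SEC62 (-0.645, adjusted p = 0.0067) and MCFD2 (-0.53, adjusted p = 0.015).

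In HMLE the Twist_OE response differed for KDELR3 (-1.845, adjusted p = 9.4e-09), TRAM2 (-1.35, adjusted p = 3.9e-10) and SEC31B (-1.17, adjusted p = 0.013). SEC31B had a low level in HMLE, with a mean log2 CPM of 1.37. The HMLE thapsigargin response differed for MIA2 (-0.68, adjusted p = 0.0001) and SRPRB (-0.28, adjusted p = 0.043), and the AA_Dep response for MIA2 (-0.83, adjusted p = 4e-05). SRPRB lost its call without most of the single libraries compared.

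Between lines in shCtrl cells, LX-2 minus HMLE, the thapsigargin response differed for SEC11C (1.38, adjusted p = 9e-08), SEC16A (-1.24, adjusted p = 2.6e-06) and SEC24D (-1.18, adjusted p = 1.8e-07). The AA_Dep response differed for MIA2 (-0.98, adjusted p = 3.2e-05), SEC24C (0.86, adjusted p = 2.5e-07) and SEC61G (0.805, adjusted p = 0.00049).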

How the results depend on the processing

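Counts below are of the 47 genes past the threshold. With all 16 LX-2 libraries they were 0 for TGFbeta, 22 for thapsigargin and 7 for AA_Dep in shCtrl, 3 for thapsigargin in shATF4, 0 for the hairpin under TGFbeta, thapsigargin, AA_Dep and DMSO, 0 for the thapsigargin and AA_Dep interactions with the hairpin, 23 for LX-2 against HMLE and 2 for the line by AA_Dep interaction. MIA2 in shATF4 against shCtrl thapsigargin LX-2 cells reversed to a log2 change of 0.105. Of 64 named values, 18 kept their call, 45 lost it and 1 reversed. DESeq2's Wald test gave 7 for the LX-2 hairpin under thapsigargin, 1 and 12 for the LX-2 TGFbeta and AA_Dep interactions and 2 for the HMLE AA_Dep interaction. Without a filter on low counts these were 8, 1, 15 and 2, and with DESeq2's size factors the HMLE AA_Dep interaction was 2; of 118 named values, 1 lost its call under the Wald test and none under the other 2.

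Leaving out single libraries gave, in LX-2, 11 to 25 for the hairpin under TGFbeta, 1 to 12 under thapsigargin, 2 to 25 in AA_Dep and 5 to 17 in DMSO, and 0 to 2, 4 to 16 and 1 to 25 for the TGFbeta, thapsigargin and AA_Dep interactions. In HMLE it gave 7 to 16 for the hairpin under thapsigargin, 3 to 8 in DMSO, 1 to 3 for the thapsigargin interaction and 1 to 2 for the AA_Dep interaction. LX-2 shCtrl thapsigargin replicate 1 could not be left out of results on its group. Shares over all genes are not given for fits that leave out a library, nor for DESeq2's Wald test, its size factors or no filter. Whether such counts moved more for the 47 than for all genes was not tested. Of 498 such named values 441 kept their call and 57 lost it. The replicate block kept all 25 counts within 1.5 times (31 for thapsigargin in LX-2 shATF4, as without it) and all 118 calls. Same-numbered samples did not deviate together (correlations of -0.36 to 0.29 in LX-2 and -0.05 to 0.23 in HMLE), so the numbers were not taken to pair samples.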

Other observations

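In thapsigargin-treated cells the neighbouring routes showed the hairpin comparison as follows (log2 change, shATF4 over shCtrl). In LX-2, without the discordant library, 1 gene was lower and none higher in each of 3 lists, where 2.09% of all genes were lower and 3.11% higher: the small GTPase ARF4 among 12 of the COPI route (-0.40), RPN1 among 12 of oligosaccharyltransferase (-0.48) and TMED3 among 8 of the p24 family (-0.51). Of the 13 genes of the tail-anchor and EMC routes none passed. In the fit of all 16 LX-2 libraries 0 of the 45 genes of the 4 lists passed by edgeR's test, where 0.231% of all genes passed. Of the 45, 13 had an unadjusted p under 0.05, a threshold for which no share over all genes is given. In HMLE 5 of 12 COPI genes, 2 of 12 oligosaccharyltransferase genes and 3 of 8 p24 genes were lower and none higher, and 2 of 13 in the insertion routes were higher and 1 lower, where 11.9% of all genes were lower and 12.3% higher. Among the lower ones were COPZ2 (-0.70), COPZ1 (-0.37), RPN1 (-0.22) and TMED5 (-0.58).

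Outside thapsigargin, TGFbeta in LX-2 shCtrl cells raised 7 of 12 COPI genes and 5 of 12 oligosaccharyltransferase genes with none falling, 4 of 8 p24 genes with 1 falling, and 0 of 13 genes of the tail-anchor and EMC routes. Of all genes 11.1% rose and 11% fell. Twist_OE in HMLE shCtrl cells raised 7 of 12 COPI genes and 11 of 12 oligosaccharyltransferase genes, with none falling in either list, where 28.3% of all genes rose and 28.9% fell.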
